A study of Mus musculus with 31 samples.

Results

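Genes expressed in cultured mouse neural stem cells were compared between cells given an extra copy of Egr1 and cells given only the transactivator. The comparison used 6 of the 31 samples of the series, all 3 libraries labelled Egr1 and all 3 labelled Control of the cultured cells, and every gene with a mean of at least 1 TPM, a share of all transcripts corrected for transcript length, over them. That rule kept 12402 of 24322 gene names. A gene with a mean below 1 TPM in 1 group entered only through a higher mean in the other. The direction of its change was then fixed by the filter. Both groups came from the same kind of culture, started from the cortex of wild-type ICR mice at embryonic day 11, passaged more than 20 times and grown with bFGF and EGF at 20 ng/ml each. Control culture cells carried a lentivirus for M2rtTA, a doxycycline-dependent transactivator, alone. Egr1 culture cells carried it together with another lentivirus, which encodes Flag-tagged Egr1. The added virus and the factor itself cannot be told apart in this design. The labels do not give the doxycycline dose or the time of induction. They do not say that the replicates were separate cultures, so p-values here reflect differences between libraries that may be technical. The remaining samples of the series were sorted dentate gyrus cells and chromatin samples, and other than the Egr1 level of the sorted cells they were not analysed here.

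Egr1 encodes a transcription factor with zinc fingers. It belongs to the immediate early genes, which growth factors, calcium entry and neuronal activity induce within minutes. It binds GC-rich promoter elements and activates growth factor and matrix genes among others. The corepressors Nab1 and Nab2 hold it in check, and its own activity can induce Nab2. In neural stem cells, exit from or return to quiescence depends on growth factor, BMP and Notch signals and on contacts with matrix and neighbouring cells, so genes of these pathways were taken first. A gene is said to have risen or fallen where limma's moderated test on log2(TPM + 1) gave a Benjamini-Hochberg adjusted p below 0.05 over all 12402 genes. Values after ± are SDs over 3 libraries for a level and standard errors for a log2 change (Egr1 minus Control culture). Values of single libraries are listed for replicates 1 to 3, first of the Control culture (Control) and then of the Egr1 culture (Egr1).

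With added Egr1, 1888 genes rose and 3598 fell, which is 15.2% and 29% of the tested genes. A rise of at least 1 on the log2 scale was seen for 481 genes (3.88%) and a fall of that size for 279 (2.25%), so large changes were more often rises and small ones more often falls. The median log2 change of all tested genes was -0.10. Median-of-ratios scaling, which sets the typical gene to no change, moved this median by 0.104 to 0.01 and gave 2781 rises (22.4%) and 2708 falls (21.8%), against 34.4% of calls being rises as deposited and 50.7% scaled. After the counts of each gene list, brackets therefore hold the scaled counts of rises and falls and the median log2 change of its tested members, as deposited and scaled. A list that merely follows the deposited shift will show a median near -0.10. Between the groups 55.5% of tested genes did not overlap, 18.4% with all Egr1 culture libraries above and 37.1% below. Libraries held 15537 to 15998 genes above 0, and relative depth lay between 0.899 and 1. Small RNA genes and Rn45s took 12.1% to 13.6% of TPM in the Control culture and 13.9% to 14.5% in the Egr1 culture. With these genes left out and the rest rescaled, 2141 genes rose and 3688 fell, at a median log2 change of -0.08. Egr1 culture replicate 3 received the lowest weight when libraries were weighted by quality (0.369, against 0.83 to 3.14 for the others).

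**Figure D1:**
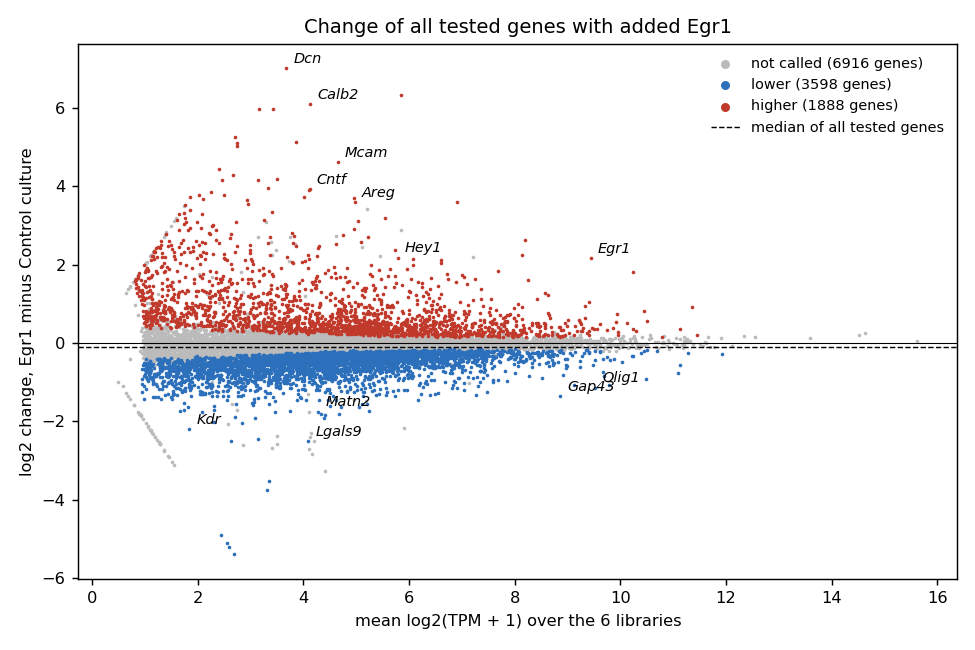
Log2 change with added Egr1 (vertical axis, Egr1 minus Control culture, on log2(TPM + 1)) against mean expression (horizontal axis, log2(TPM + 1) over 6 libraries). Each point is 1 of 12402 tested genes, red where it rose (1888), blue where it fell (3598), and the dashed line is the median of all tested genes (-0.10). The largest changes are rises, led by Dcn.

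The added gene itself was measured at 361, 285 and 344 TPM (Control) and 1769, 1390.0 and 1291 TPM (Egr1) (log2 change 2.16 ± 0.13, adjusted p = 4.0e-06), so all Egr1 culture libraries lay above all Control culture libraries. The deposited value is 1 per gene, and viral and endogenous transcripts cannot be told apart in it. In 9 libraries of sorted Nestin-EGFP cells of 8-week mice, normalized separately, Egr1 was listed at 1705 to 2706 TPM, a level set beside the culture values without a test. Those libraries pool control mice, mice given midazolam, and mice given midazolam that also ran, so the range is not that of untreated mice alone. Of the other Egr factors, Egr2 stood at 4.17, 4.33 and 4.54 TPM (Control) and 1.58, 1.73 and 1.25 TPM (Egr1) (log2 change -1.09 ± 0.13, adjusted p = 2.2e-04). Egr3 stood at 2.85, 2.95 and 2.83 TPM (Control) and 0.968, 0.732 and 0.705 TPM (Egr1) (log2 change -1.11 ± 0.13, adjusted p = 2.5e-04). Both relatives of Egr1 fell without overlap between groups. All Egr1 culture libraries lay below all Control culture libraries for 37.1% of all tested genes. Egr4 changed by -0.58 from 3.13 ± 0.725 to 1.76 ± 0.546 TPM (adjusted p = 0.032), a call lost in 7 alternatives, with scaling, with quality weights, with no filter on low values and without Control culture replicate 1 or 2 or Egr1 culture replicate 1 or 3 (adjusted p 0.0562 to 0.11). The corepressor Nab1 was at 36 ± 2.7 TPM (Control) and 34.8 ± 4.36 TPM (Egr1) (adjusted p = 0.7) and Nab2 at 92.5 ± 3.76 TPM (Control) and 107 ± 12 TPM (Egr1) (adjusted p = 0.083), neither of them called, although Nab2 passed, as a rise, after scaling (adjusted p = 0.00898) and without Egr1 culture replicate 3 (adjusted p = 0.00603). The sign of the Nab1 value flipped with scaling.

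**Figure D2:**
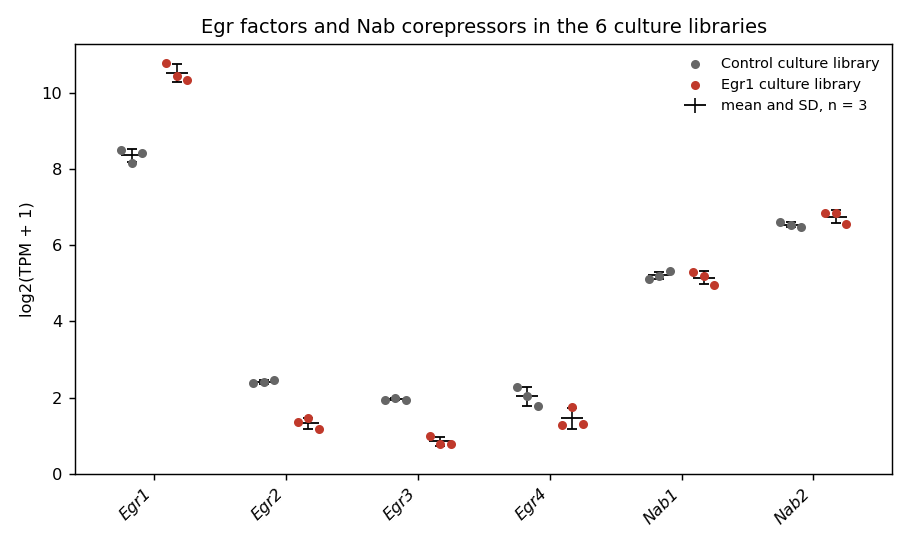
Level of the Egr factors and Nab corepressors, as log2(TPM + 1) on the vertical axis, in each of the 3 Control culture (grey) and 3 Egr1 culture (red) libraries, with mean and SD in black. Egr1 is higher and Egr2 and Egr3 are lower in every Egr1 culture library, and Nab1 overlaps between groups.

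Because Egr1 recognizes a GC-rich element, promoters were searched for its described site, the 9-base words GCGTGGGCG and GCGGGGGCG on either strand, from 250 bases before to 50 after each start site in RefSeq (GRCm38.p6). A promoter was listed for 9265 of the 12402 tested genes, and a word was found for 8.04% of them. The share was 11.5% of 1371 genes that rose, 7.75% of 2750 that fell and 7.29% of 5144 that were not called, at a mean GC content of 62.7%, 61.5% and 61% of the promoter bases. After scaling, the shares were 11.2% of genes that rose and 8.64% of those that fell, and among genes that rose by at least 1 on the log2 scale it was 11.1%, at a mean GC content of 61.3%, against 61.4% for all tested genes. Over all 32851 listed promoters, expressed or not, 3.47% held a word. That share is counted per promoter, while the shares above count a gene if any of its listed promoters held a word, so they are not directly comparable. These are descriptions of letters in a window, without a test. Of the genes described below, the pair with the largest rises and the pair with the largest falls whose word lay before the annotated gene are shown with up to 50 bases on either side, so that the sequence around the site can be seen for both directions. All are on the strand of the gene, 5′ to 3′, with the word in capitals.

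Fgfr3 (rose, chr5:33721611-33721719, plus strand, word starting 63 bases before the start site): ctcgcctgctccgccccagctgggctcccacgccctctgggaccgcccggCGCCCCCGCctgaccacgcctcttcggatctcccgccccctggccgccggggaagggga
Hspb8 (rose, chr5:116423040-116423114, minus strand, 234 bases before): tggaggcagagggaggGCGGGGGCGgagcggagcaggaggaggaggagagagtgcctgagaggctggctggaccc
Klf2 (fell, chr8:72318813-72318921, plus strand, 199 bases before): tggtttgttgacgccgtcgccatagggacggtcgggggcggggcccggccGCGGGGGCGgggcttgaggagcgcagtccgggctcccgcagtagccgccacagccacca
Wnt7a (fell, chr6:91411354-91411445, minus strand, 42 bases before): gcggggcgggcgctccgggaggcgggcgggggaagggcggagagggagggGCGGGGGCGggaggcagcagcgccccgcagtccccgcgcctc
Wnt7a (the same promoter, chr6:91411474-91411582, 179 bases before): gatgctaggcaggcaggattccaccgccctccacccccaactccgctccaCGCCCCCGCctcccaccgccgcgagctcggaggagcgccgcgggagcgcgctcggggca

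Fgfr3 and Wnt7a, 1 rising and 1 falling, carry the same word on opposite strands in the windows nearest the start, and Wnt7a carries it in both orientations.

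Among genes described elsewhere as Egr1 targets, 14 of 41 tested members rose and 11 fell (scaled 20 and 8, medians 0.11 and 0.22). These shares, 34.1% and 26.8%, stand beside 15.2% and 29% of all tested genes. The largest rise was that of Areg (amphiregulin, a ligand of the EGF receptor, chromosome 5, 91139599 to 91148432 on GRCm38.p6), which stood at 7.86, 7.22 and 9.25 TPM (Control) and 116, 105 and 104 TPM (Egr1) (log2 change 3.59 ± 0.10, adjusted p = 5.2e-08). Dusp5, a phosphatase that removes the activating phosphates of ERK in the nucleus, stood at 10.2, 8.07 and 9.68 TPM (Control) and 65.8, 52.7 and 55.4 TPM (Egr1) (log2 change 2.51 ± 0.11, adjusted p = 9.7e-07). Pdgfb, the B chain of platelet-derived growth factor, rose from 0.525 ± 0.153 to 7.12 ± 0.659 TPM. The stress-responsive Ndrg1 rose from 0.351 ± 0.187 to 7.32 ± 1.51 TPM. Each of these 4 genes was higher in every Egr1 culture library than in any Control culture library, as were 18.4% of all tested genes. Pdgfb and Ndrg1, below 1 TPM in the Control culture, entered only through the Egr1 culture. The 2 largest falls in the list were those of Egr3 and Egr2. Immediate early genes as a group moved both ways, and 10 of 35 tested members rose and 11 fell (scaled 15 and 11, medians 0.10 and 0.20). Their shares were 28.6% and 31.4%, the falling one near the 29% of all tested genes. The matricellular gene Cyr61 fell (log2 change -1.46), as did the AP-1 subunit Junb (-1.39), Ier2 (-1.19) and the small GTPase gene Gem (-1.16). In contrast Ier3 rose from 22.4 ± 1.32 to 120.0 ± 9.1 TPM and the pseudokinase gene Trib1 from 9.8 ± 0.336 to 29.6 ± 4 TPM.

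Feedback genes of the MAP kinase pathway, which growth factor signalling induces and many of which then damp it, held more falls than rises. In this list 4 of 21 tested members rose and 11 fell (scaled 4 and 10, medians -0.33 and -0.22). The shares, 19% and 52.4%, stand beside 15.2% and 29% of all tested genes. Spry4 stood at 98.6, 84.4 and 99.6 TPM (Control) and 43.1, 44.2 and 33.7 TPM (Egr1) (log2 change -1.21 ± 0.11, adjusted p = 5.6e-05). Il17rd, also known as Sef and an antagonist of FGF receptor signalling, stood at 16.4, 15.3 and 18 TPM (Control) and 5.37, 5.21 and 4.51 TPM (Egr1) (log2 change -1.54 ± 0.11, adjusted p = 1.0e-05). The adaptor Sh2b3 fell from 16.7 ± 2.46 to 7.72 ± 0.362 TPM and the receptor antagonist Lrig1 from 109 ± 7.76 to 60.2 ± 5.05 TPM. Dusp5 and the ETS factor Etv5, which rose from 258 ± 17.2 to 603 ± 62.1 TPM, went the other way, so members of this list did not move together.

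Ligands and receptors for growth factors differed by family. Rising and falling shares were 25% and 25% for EGF, 25% and 41.7% for FGF and 15% and 55% for IGF genes. They were 21.1% and 42.1% for trophic factors, beside 15.2% and 29% of all tested genes. Of the EGF family, 3 of 12 tested members rose and 3 fell (scaled 4 and 3, medians 0.02 and 0.11). Beside Areg, Lrig3 rose from 1.73 ± 0.219 to 3.14 ± 0.504 TPM, while the receptor inhibitor Errfi1 fell from 10.8 ± 1.24 to 6.55 ± 0.465 TPM. Of the FGF family, 3 of 12 tested members rose and 5 fell (scaled 4 and 5, medians -0.22 and -0.12). Fgfr3, a receptor tyrosine kinase of astrocytes and ventricular zone progenitors, stood at 18, 18.2 and 17 TPM (Control) and 52.5, 53.2 and 42.9 TPM (Egr1) (log2 change 1.43 ± 0.09, adjusted p = 8.4e-06). The ligand gene Fgf1 fell from 52.4 ± 3.24 to 23.2 ± 1.35 TPM. Fgfrl1, a receptor relative without the kinase domain, fell from 51.8 ± 1.47 to 31.8 ± 0.957 TPM. Of the PDGF and VEGF families, 2 of 15 tested members rose and 9 fell (scaled 2 and 7, medians -0.44 and -0.37), shares of 13.3% and 60%. Kdr, the main VEGF receptor, stood at 7.69, 5.21 and 7.3 TPM (Control) and 0.924, 0.547 and 0.571 TPM (Egr1) (log2 change -2.19 ± 0.17, adjusted p = 1.9e-05). The ligand Vegfb fell from 62.9 ± 6.1 to 32.6 ± 2.27 TPM. Kitl fell from 73.1 ± 9.54 to 44 ± 1.36 TPM and its receptor gene Kit from 2.51 ± 0.136 to 0.967 ± 0.138 TPM. Of IGF and insulin signalling, 3 of 20 tested members rose and 11 fell (scaled 4 and 9, medians -0.26 and -0.15). The docking protein Irs2 stood at 26.1, 20.1 and 23.9 TPM (Control) and 8.16, 8.18 and 7.32 TPM (Egr1) (log2 change -1.45 ± 0.11, adjusted p = 1.9e-05). Igfbp3, an IGF-binding protein and one of the more abundant transcripts of these cells, fell from 1284 ± 81.8 to 615 ± 44 TPM. Igfbp4 fell from 166 ± 10.5 to 74.8 ± 3.96 TPM, while Igfbp5 rose from 10.1 ± 0.493 to 27.8 ± 5.63 TPM. Of neurotrophins and other trophic factors, 4 of 19 tested members rose and 8 fell (scaled 5 and 6, medians -0.20 and -0.09). Cntf, ciliary neurotrophic factor, stood at 2.96, 4.38 and 3.07 TPM (Control) and 76.8, 53.9 and 68.6 TPM (Egr1) (log2 change 3.92 ± 0.16, adjusted p = 5.9e-07), the largest rise in its list. The GDNF relative Nrtn fell (log2 change -1.08), as did Lif (-0.66) and its receptor Lifr (-0.63).

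**Figure D3:**
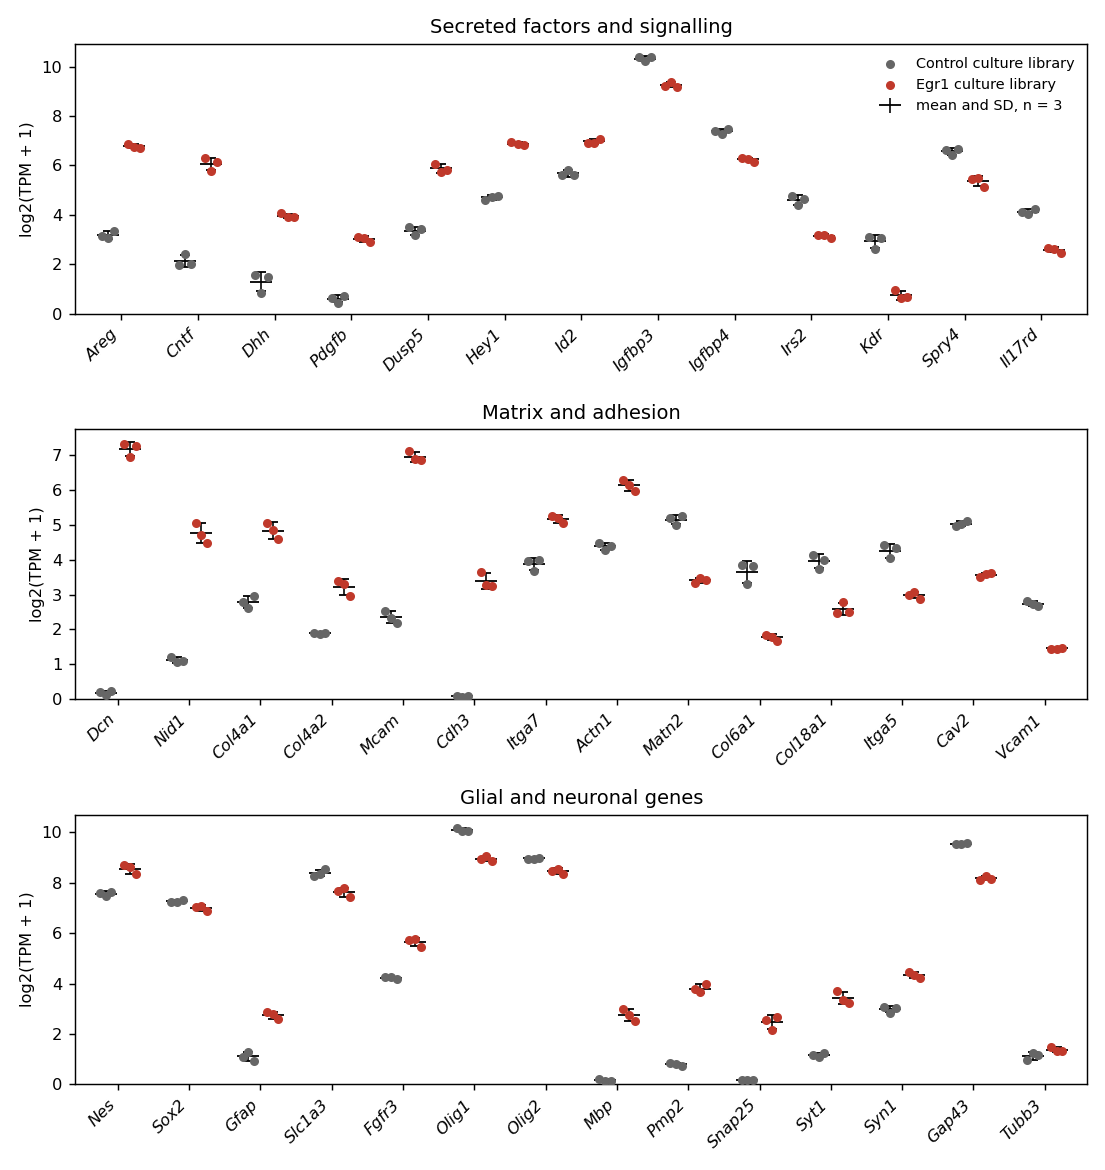
Levels of the leading genes by role, as log2(TPM + 1) on the vertical axis, in each Control culture (grey) and Egr1 culture (red) library, with mean and SD over 3 libraries in black. Areg, Cntf, Dcn and Mcam are well above every Control culture library in every Egr1 culture library, and Dcn is near the bottom of its panel in the Control culture. Igfbp3, Kdr, Col6a1, Olig1 and Gap43 are lower in every Egr1 culture library.

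BMP signalling, which in adult neural stem cells is tied to quiescence and glial fate, had more rises than falls, and 9 of 17 tested members rose and 5 fell (scaled 9 and 5, medians 0.32 and 0.43). The shares, 52.9% rising and 29.4% falling, stand beside 15.2% and 29% of all tested genes. Nog and Id4, counted among the rises, had Control means below 1 TPM. They entered only through the Egr1 culture and could be tested only as higher there. Id2, an inhibitor of basic helix-loop-helix factors and a BMP target, stood at 47.3, 55.6 and 47.7 TPM (Control) and 120.3, 120.1 and 133 TPM (Egr1) (log2 change 1.29 ± 0.08, adjusted p = 5.6e-06). Its relative Id4 rose from 0.48 ± 0.136 to 1.59 ± 0.0527 TPM and the BMP effector Smad5 from 79.7 ± 5.09 to 145 ± 11.1 TPM. Antagonists of the pathway moved both ways. The BMP-binding Nog rose from 0.168 ± 0.0483 to 1.84 ± 0.259 TPM. Chrdl1 fell from 14.4 ± 1.79 to 8.64 ± 0.988 TPM and Bmper from 6.28 ± 0.914 to 3.11 ± 0.36 TPM. For TGF-beta and activin signalling, 6 of 23 tested members rose and 7 fell (scaled 8 and 5, medians -0.20 and -0.10). Its shares were 26.1% and 30.4%, the falling one near the 29% of all tested genes. The activin-binding follistatin gene Fst rose (log2 change 1.72), as did the effector Smad3 (0.65), while Tgfb1 fell (-0.78) and the ligand Gdf11 (-0.51). The number of falls in the TGF-beta list was 4 without Control culture replicate 1 or replicate 3 and 3 without Egr1 culture replicate 3.

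In the Notch pathway, which keeps neural stem cells undifferentiated, 8 of 23 tested members rose and 5 fell (scaled 11 and 5, medians -0.0044 and 0.10). Rising and falling shares were 34.8% and 21.7% for Notch, 12.8% and 46.2% for Wnt and 19.2% and 46.2% for Hippo genes. All tested genes had 15.2% and 29%. Hey1, a repressor that Notch induces, stood at 23.5, 25.2 and 26.5 TPM (Control) and 122, 115 and 114 TPM (Egr1) (log2 change 2.18 ± 0.07, adjusted p = 1.5e-07). The receptor gene Notch2 rose (log2 change 0.96), as did the target Hes5 (0.90) and the glycosyltransferase gene Mfng (0.92). Nrarp, a feedback inhibitor, fell from 37.7 ± 1.04 to 19.6 ± 1.14 TPM, and Hes6, which opposes Hes1, from 110.4 ± 7.74 to 56 ± 0.767 TPM. In the Wnt pathway, 5 of 39 tested members rose and 18 fell (scaled 8 and 18, medians -0.26 and -0.15). The ligand Wnt7a stood at 27.9, 28.4 and 28.5 TPM (Control) and 12.5, 15.9 and 12 TPM (Egr1) (log2 change -1.03 ± 0.11, adjusted p = 1.2e-04). Its relative Wnt5b fell (log2 change -1.04), as did the feedback inhibitor Nkd1 (-1.21). The receptor gene Fzd9 fell from 35.5 ± 4.25 to 17.2 ± 0.442 TPM. Wnt6 rose from 0.24 ± 0.0957 to 2 ± 0.418 TPM, and Wnt8b, listed at 0 in all Control culture libraries, reached 2.35, 2.34 and 2.69 TPM. Both genes entered only through the Egr1 culture. Of the Hedgehog pathway, 4 of 12 tested members rose and 1 fell (scaled 4 and 0, medians -0.05 and 0.05). The shares, 33.3% rising and 8.33% falling, stand beside 15.2% and 29% of all tested genes. The ligand Dhh stood at 1.92, 0.789 and 1.77 TPM (Control) and 15.7, 13.9 and 14.1 TPM (Egr1) (log2 change 2.67 ± 0.18, adjusted p = 1.0e-05). Ptch1, receptor and target, rose from 27 ± 2.57 to 39.5 ± 7.06 TPM and the ciliary kinesin Kif7 from 9.62 ± 0.584 to 19.6 ± 1.77 TPM. The only fall, Disp1, was lost without Control culture replicate 1 or 3 or any Egr1 culture library, and there were 2 falls without Control culture replicate 2. For Hippo signalling and YAP targets, 5 of 26 tested members rose and 12 fell (scaled 5 and 10, medians -0.20 and -0.09). The kinase Lats2 fell (log2 change -0.71), as did the angiomotin relative Amotl1 (-1.15) and Nuak2 (-1.11), and the exchange factor gene Arhgef17 rose (1.57). Rises in the Hippo list numbered 3 without Control culture replicate 1 or 2 or Egr1 culture replicate 1 or 2.

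Other transcription factor families were split. Rising and falling shares were 36.8% and 26.3% for Klf and Sp factors and 7.69% and 38.5% for nuclear hormone receptors. They were 14.3% and 47.6% for clock genes, beside 15.2% and 29% of all tested genes. Of Klf and Sp factors, 7 of 19 tested members rose and 5 fell (scaled 9 and 5, medians -0.08 and 0.03). Klf10, which TGF-beta induces, rose from 102 ± 8.46 to 264 ± 22.9 TPM and Klf9 from 6.45 ± 0.486 to 14 ± 1.21 TPM. Klf2 fell from 2.61 ± 0.162 to 0.872 ± 0.317 TPM and Klf15 from 3.61 ± 0.363 to 1.33 ± 0.341 TPM. Of nuclear hormone receptors, 2 of 26 tested members rose and 10 fell (scaled 3 and 10, medians -0.20 and -0.13). The fatty acid sensor Ppard fell (log2 change -0.85), as did the retinoic acid receptor Rarb (-0.68) and the thyroid hormone receptor Thra (-0.65), and Esrra rose (0.54). Of circadian clock genes, 3 of 21 tested members rose and 10 fell (scaled 3 and 9, medians -0.12 and -0.02). Clock stood at 32.7, 29.2 and 36.8 TPM (Control) and 14.9, 14.1 and 12.4 TPM (Egr1) (log2 change -1.19 ± 0.11, adjusted p = 4.6e-05). Its partner Arntl, also called Bmal1, rose from 21.4 ± 0.0385 to 39 ± 3.61 TPM and their repressor Bhlhe40 from 52.4 ± 3.2 to 125 ± 13.6 TPM. The output factor Hlf fell from 15 ± 0.963 to 6.77 ± 0.607 TPM and Per2 from 4.77 ± 0.709 to 2.4 ± 0.476 TPM. Falls in the clock list numbered 5 without Control culture replicate 3.

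**Figure D4:**
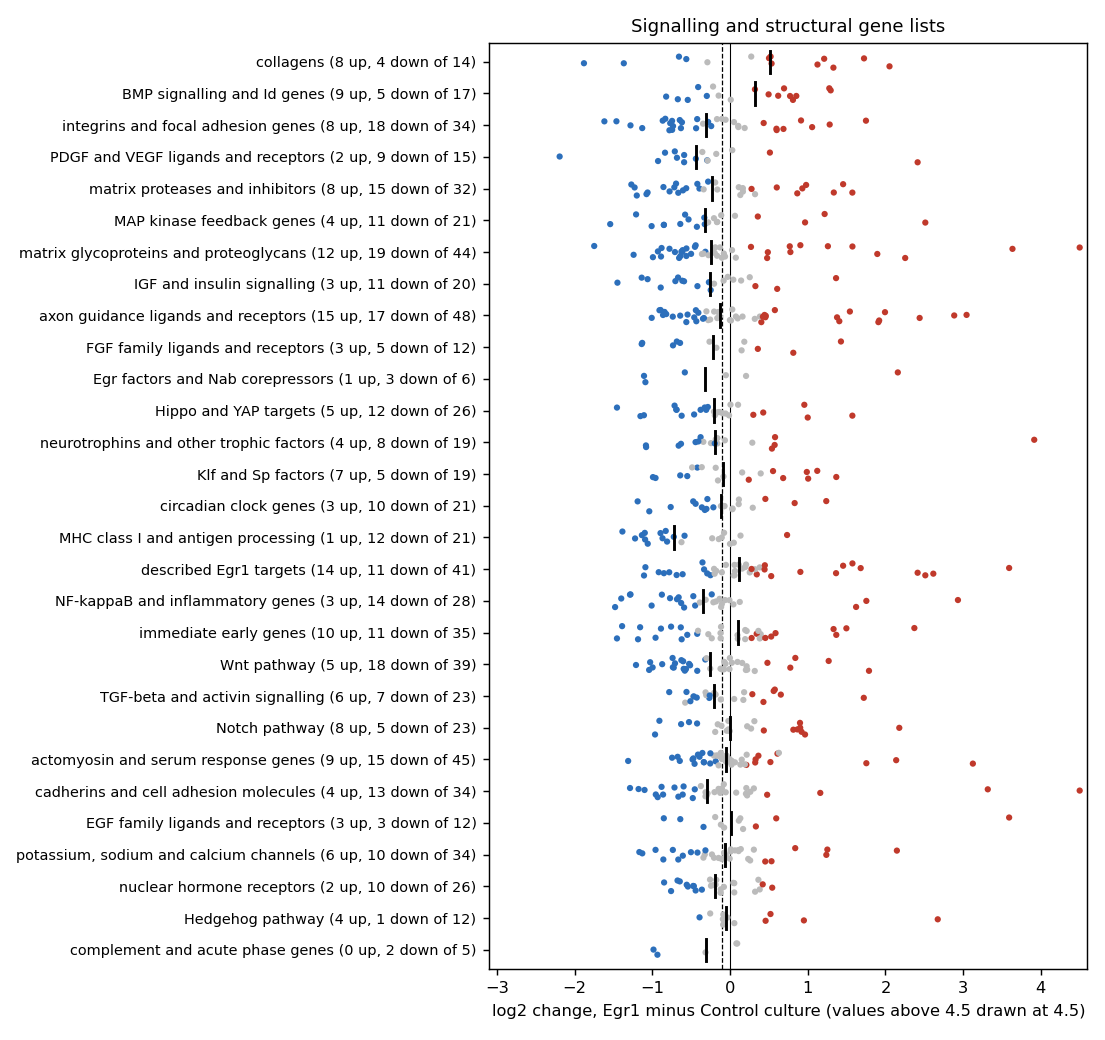
Log2 change (horizontal axis) of each tested member of the signalling and structural lists, red where it rose, blue where it fell and grey where it was not called, with a black bar at the list median and a dashed line at the median of all tested genes. Collagens and BMP genes have medians above 0 (0.51 and 0.32), while MHC class I genes and PDGF and VEGF genes have the lowest (-0.72 and -0.44).

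Extracellular matrix genes showed some of the largest changes in both directions. Of collagens, 8 of 14 tested members rose and 4 fell (scaled 9 and 4, medians 0.51 and 0.60), shares of 57.1% and 28.6%. Among these rises, Col9a2 and Col11a1 had Control means of 0.277 and 0.216 TPM and entered only through the Egr1 culture. All tested genes had shares of 15.2% and 29%, matrix glycoproteins 27.3% and 43.2%, and matrix proteases 25% and 46.9%. The basement membrane collagen IV chains Col4a1 and Col4a2, which are transcribed from a shared promoter region, both rose. Col4a1 stood at 5.83, 5.16 and 6.81 TPM (Control) and 32.3, 28.1 and 23.2 TPM (Egr1) (log2 change 2.05 ± 0.14, adjusted p = 8.8e-06). Col4a2 stood at 2.75, 2.63 and 2.74 TPM (Control) and 9.49, 8.8 and 6.85 TPM (Egr1) (log2 change 1.33 ± 0.13, adjusted p = 8.8e-05). Nid1, which links laminin to collagen IV, stood at 1.32, 1.11 and 1.12 TPM (Control) and 32.5, 25.4 and 21.5 TPM (Egr1) (log2 change 3.63 ± 0.15, adjusted p = 6.1e-07). These 3 basement membrane genes were higher in every Egr1 culture library than in any Control culture library, as were 18.4% of all tested genes. Col18a1, another basement membrane collagen, fell from 14.6 ± 2.13 to 5.01 ± 0.707 TPM. Col6a1 stood at 13.4, 8.83 and 13 TPM (Control) and 2.6, 2.44 and 2.2 TPM (Egr1) (log2 change -1.88 ± 0.16, adjusted p = 3.3e-05). Of matrix glycoproteins and proteoglycans, 12 of 44 tested members rose and 19 fell (scaled 12 and 18, medians -0.25 and -0.16). Dcn, which encodes decorin, a small proteoglycan that binds collagen fibrils and TGF-beta (chromosome 10, 97479500 to 97518163), stood at 0.149, 0.0766 and 0.161 TPM (Control) and 158, 123 and 154 TPM (Egr1) (log2 change 7.01 ± 0.11, adjusted p = 9.7e-09). It was the gene with the largest log2 change of all tested. Matn2, a matrilin of filamentous matrix, stood at 35.9, 31 and 37.2 TPM (Control) and 9.08, 10 and 9.69 TPM (Egr1) (log2 change -1.75 ± 0.09, adjusted p = 2.7e-06). Ecm1 fell from 31.8 ± 3.85 to 13.2 ± 3.82 TPM. The heparan sulfate proteoglycan genes Gpc4 and Sdc2 fell from 64.9 ± 8.74 to 32.3 ± 6.14 TPM and from 43.5 ± 4 to 22.4 ± 1.6 TPM. Of matrix proteases and their inhibitors, 8 of 32 tested members rose and 15 fell (scaled 12 and 14, medians -0.24 and -0.12). Serpinf1, the neurotrophic pigment epithelium-derived factor, fell (log2 change -1.27), as did Adamts12 (-1.20) and Adam19 (-1.08), while the gelatinase gene Mmp2 rose (1.46) and Adamts17 (1.57).

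Falls made up 52.9% of integrin and focal adhesion genes and 38.2% of cadherins and other adhesion molecules, beside 29% of all tested genes. Of integrins and focal adhesion genes, 8 of 34 tested members rose and 18 fell (scaled 10 and 17, medians -0.32 and -0.22). The fibronectin receptor subunit Itga5 stood at 20.5, 15.4 and 19 TPM (Control) and 6.99, 7.38 and 6.36 TPM (Egr1) (log2 change -1.28 ± 0.12, adjusted p = 5.9e-05). The collagen receptor subunit Itga1 fell (log2 change -1.13), as did tensin 1 (Tns1) (-1.62) and caveolin 2 (Cav2) (-1.46). The laminin receptor subunit Itga7 rose from 13.8 ± 1.75 to 35 ± 2.65 TPM. Actn1, the actin crosslinker alpha-actinin 1, stood at 21.2, 18.5 and 20.2 TPM (Control) and 76.8, 70.4 and 61.7 TPM (Egr1) (log2 change 1.75 ± 0.09, adjusted p = 2.7e-06). Of cadherins and other adhesion molecules, 4 of 34 tested members rose and 13 fell (scaled 6 and 12, medians -0.30 and -0.21). Mcam (CD146, an adhesion molecule of the immunoglobulin superfamily, chromosome 9, 44134658 to 44142727) stood at 4.77, 4.04 and 3.52 TPM (Control) and 138, 117 and 115 TPM (Egr1) (log2 change 4.61 ± 0.11, adjusted p = 3.4e-08). P-cadherin (Cdh3) stood at 0.0619, 0.0318 and 0.0669 TPM (Control) and 11.6, 8.67 and 8.48 TPM (Egr1) (log2 change 3.32 ± 0.15, adjusted p = 9.6e-07). Vcam1, which is linked to stem cell anchoring in the adult niche, fell (log2 change -1.29), as did the neuronal adhesion molecule Chl1 (-1.18) and T-cadherin (Cdh13) (-0.96). Of actomyosin and serum response genes, 9 of 45 tested members rose and 15 fell (scaled 12 and 12, medians -0.05 and 0.04). These shares, 20% and 33.3%, were near the 15.2% and 29% of all tested genes. The smooth muscle actin gene Acta2 rose from 2.87 ± 0.308 to 16.3 ± 3.82 TPM. Its relative Actg2 rose from 0.0384 ± 0.0665 to 8.22 ± 2.28 TPM. The GTPase gene Rnd1 fell from 5.99 ± 0.371 to 1.83 ± 0.362 TPM and vinculin (Vcl) from 38.4 ± 3.53 to 24.1 ± 1.81 TPM.

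Of axon guidance genes 31.2% rose and 35.4% fell, and of synaptic genes 41.9% and 32.3%, beside 15.2% and 29% of all tested genes. Ion channel genes, with 17.6% and 29.4%, stood near the shares of all tested genes. Some of the rises began at low levels and others did not. Of axon guidance ligands and receptors, 15 of 48 tested members rose and 17 fell (scaled 17 and 15, medians -0.14 and -0.04). Sema3b rose from 0.174 ± 0.0837 to 8.73 ± 1.43 TPM. Sema7a, a membrane-anchored semaphorin, stood at 1, 0.675 and 0.959 TPM (Control) and 14.9, 11.9 and 11.9 TPM (Egr1) (log2 change 2.88 ± 0.14, adjusted p = 1.4e-06). The Slit receptor Robo1 fell (log2 change -1.01), as did Sema5a (-0.91) and the ephrin receptor Epha5 (-0.86). Of ion channel genes, 6 of 34 tested members rose and 10 fell (scaled 9 and 10, medians -0.07 and 0.03). The axonal potassium channel gene Kcna2 rose from 31.2 ± 3.03 to 143 ± 26.6 TPM. The subunit gene Cacng5 fell from 65.1 ± 6.79 to 28.4 ± 2.62 TPM. Of synaptic and mature neuron genes, 13 of 31 tested members rose and 10 fell (scaled 14 and 10, medians 0.10 and 0.20). The vesicle fusion gene Snap25 rose from 0.128 ± 0.00497 to 4.61 ± 1.05 TPM. Syt1, the calcium sensor of release, stood at 1.26, 1.1 and 1.36 TPM (Control) and 12.1, 9.24 and 8.29 TPM (Egr1) (log2 change 2.27 ± 0.15, adjusted p = 7.9e-06). The vesicle protein genes Syn1 and Cplx2 rose from 6.9 ± 0.651 to 19.4 ± 1.87 TPM and from 72.1 ± 4 to 141 ± 14.4 TPM. Genes of other vesicle membrane proteins went the other way, Sv2a from 12.9 ± 1.56 to 3.83 ± 0.328 TPM and Syp from 9.68 ± 1.33 to 4.52 ± 0.653 TPM, so the synaptic list did not move as a block.

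Markers of neural stem cells were present in both groups. All 10 markers used for these cells had a mean of at least 1 TPM, and their sum lay between 5690 and 6150 TPM in the Control culture and between 5040 and 5270 TPM in the Egr1 culture. Nes, an intermediate filament gene of neural progenitors, stood at 193, 176 and 198 TPM (Control) and 419.6, 394 and 320.2 TPM (Egr1) (log2 change 0.99 ± 0.10, adjusted p = 9.1e-05). Vim was at 2439 ± 53.8 TPM (Control) and 2473 ± 149.5 TPM (Egr1) (adjusted p = 0.84) and Pax6 at 24.1 ± 3.37 TPM (Control) and 25.6 ± 3.39 TPM (Egr1) (adjusted p = 0.62), neither of them called. Sox2 changed by -0.27 from 153 ± 5.45 to 127 ± 9.77 TPM (adjusted p = 0.013), with an adjusted p of 0.0503 without Control culture replicate 3. Of the wider radial glia and stem cell list, 10 of 30 tested members rose and 13 fell (scaled 10 and 13, medians -0.14 and -0.03). The glutamate transporter Slc1a3 stood at 306, 328 and 369.8 TPM (Control) and 203, 218 and 169.9 TPM (Egr1) (log2 change -0.76 ± 0.10, adjusted p = 4.3e-04). Fabp5 fell from 495 ± 34 to 329 ± 35 TPM and Thrsp from 42.6 ± 1.31 to 19 ± 1.7 TPM. Of astrocyte markers, 8 of 27 tested members rose and 12 fell (scaled 8 and 12, medians -0.35 and -0.24). Gfap, the intermediate filament of astrocytes and adult neural stem cells, stood at 1.14, 1.43 and 0.925 TPM (Control) and 6.28, 5.89 and 5.03 TPM (Egr1) (log2 change 1.64 ± 0.14, adjusted p = 3.8e-05). The bicarbonate transporter gene Slc4a4 fell (log2 change -1.36), as did Clu (-0.94) and glutamine synthetase, Glul (-0.75). Of reactive glia genes, 5 of 21 rose and 10 fell (scaled 6 and 6, medians -0.19 and -0.13). Emp1 rose (log2 change 1.72), while Tm4sf1 fell (-1.83) and Cd44 (-0.61). Rises in this list numbered 3 without Control culture replicate 3, and falls 6 without Control culture replicate 1. Rising and falling shares were 33.3% and 43.3% for radial glia, 29.6% and 44.4% for astrocyte and 23.8% and 47.6% for reactive glia genes. All tested genes had 15.2% and 29%.

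Of oligodendrocyte lineage markers, 7 of 17 tested members rose and 8 fell (scaled 8 and 8, medians -0.03 and 0.08). The shares, 41.2% and 47.1%, stand beside 15.2% and 29% of all tested genes. The transcription factor gene Olig1 stood at 1165, 1072 and 1060.0 TPM (Control) and 488, 539.9 and 464 TPM (Egr1) (log2 change -1.14 ± 0.07, adjusted p = 5.0e-06). Olig2 stood at 496, 496 and 511 TPM (Control) and 356, 376 and 326 TPM (Egr1) (log2 change -0.51 ± 0.06, adjusted p = 2.9e-04). Myrf, the regulator of central myelin genes, fell from 3.53 ± 0.554 to 0.866 ± 0.126 TPM and the receptor phosphatase gene Ptprz1 from 200.3 ± 24.1 to 109 ± 16.9 TPM. The largest rises in the same list were those of the myelin genes Mbp and Cnp. Mbp, a main myelin protein, stood at 0.159, 0.0948 and 0.0996 TPM (Control) and 6.98, 5.78 and 4.76 TPM (Egr1) (log2 change 2.60 ± 0.16, adjusted p = 4.6e-06). Cnp rose from 97.6 ± 5.55 to 192 ± 2.39 TPM. A few genes outside the lists were picked after their values were seen and because they rose, so they stand for no group and no count. Pmp2, a lipid-binding protein of peripheral myelin, stood at 0.818, 0.735 and 0.662 TPM (Control) and 12.6, 11.5 and 14.8 TPM (Egr1). Cldn19, a claudin of Schwann cell junctions, rose from 0.305 ± 0.0975 to 22.2 ± 2.63 TPM. The connexin gene Gjc3 rose from 1.56 ± 0.21 to 38.7 ± 0.458 TPM. Ncmap rose (log2 change 1.86), as did periaxin (Prx) (1.21) and Pmp22 (0.49). Egr2, described above and known as a regulator of peripheral myelin genes, fell (log2 change -1.09). The oligodendrocyte and neural crest factor Sox10 was below the mean of 1 TPM in these libraries, as was Mog.

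Of neuronal commitment and neuroblast markers, 4 of 17 rose and 5 fell (scaled 6 and 3, medians -0.13 and -0.02). Their shares were 23.5% and 29.4%, beside 15.2% and 29% of all tested genes. Gap43, a growth cone protein, stood at 732, 746 and 758 TPM (Control) and 276, 309 and 284 TPM (Egr1) (log2 change -1.36 ± 0.06, adjusted p = 7.3e-07). Insm1 fell from 6.88 ± 0.83 to 3.57 ± 0.419 TPM. Without 1 library the count of rises ranged down to 0 (Control culture replicate 2), with 2 without Control culture replicate 1 and 1 without Egr1 culture replicate 1 or 2, and falls numbered 3 without Control culture replicate 2 or Egr1 culture replicate 1. Dcx was below the mean of 1 TPM, and the level of Tubb3 was 1.19 ± 0.223 TPM (Control) and 1.6 ± 0.171 TPM (Egr1) (adjusted p = 0.19). The summed level of 8 neuroblast markers was 771 to 806 TPM in the Control culture and 326 to 357 TPM in the Egr1 culture, most of it Gap43. In bulk samples such as these, fewer cells of a type and less RNA per cell cannot be told apart.

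Markers of other cell types were low. Of 5 endothelial markers none had a mean of 1 TPM, Cldn5 was at 0 in every library and their sum stayed at or below 1.25 TPM. Of 6 microglial markers Aif1, Cx3cr1 and C1qa were at 0 in every library, and the sum was 3.44 to 3.65 TPM in the Control culture and 1.9 to 2.55 TPM in the Egr1 culture. Of 7 mural and fibroblast markers, 5 (Myh11, Rgs5, Col1a1, Col3a1 and Lum) were below a mean of 1 TPM, and the sum without Dcn was 3.24 to 4.11 TPM in the Control culture and 13 to 20.7 TPM in the Egr1 culture, where Acta2 made up most of it. With Dcn the sums were 3.32 to 4.28 TPM and 142 to 179 TPM. The part of such cells in the rise of Dcn was not tested. Of 4 ependymal and choroid plexus markers the sum was 14.1 to 15.5 TPM and 8.86 to 12 TPM. Wider lists reach beyond these defining markers. For endothelial cells, 2 of 5 rose and 2 fell (scaled 2 and 2, medians -0.56 and -0.49). For mural cells and fibroblasts, 3 of 6 rose and 2 fell (scaled 3 and 2, medians 0.25 and 0.32). For microglia and macrophages, 0 of 3 rose and 2 fell (scaled 0 and 2, medians -0.49 and -0.41). For ependymal and choroid plexus cells, 2 of 5 rose and 1 fell (scaled 2 and 1, medians -0.26 and -0.15). Each of these counts is of 3 to 6 tested members of 18, and leaving out 1 library moved counts of 1 or 2 by 1 gene. At an unadjusted limma p below 0.05, 0 microglial members were higher.

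**Figure D5:**
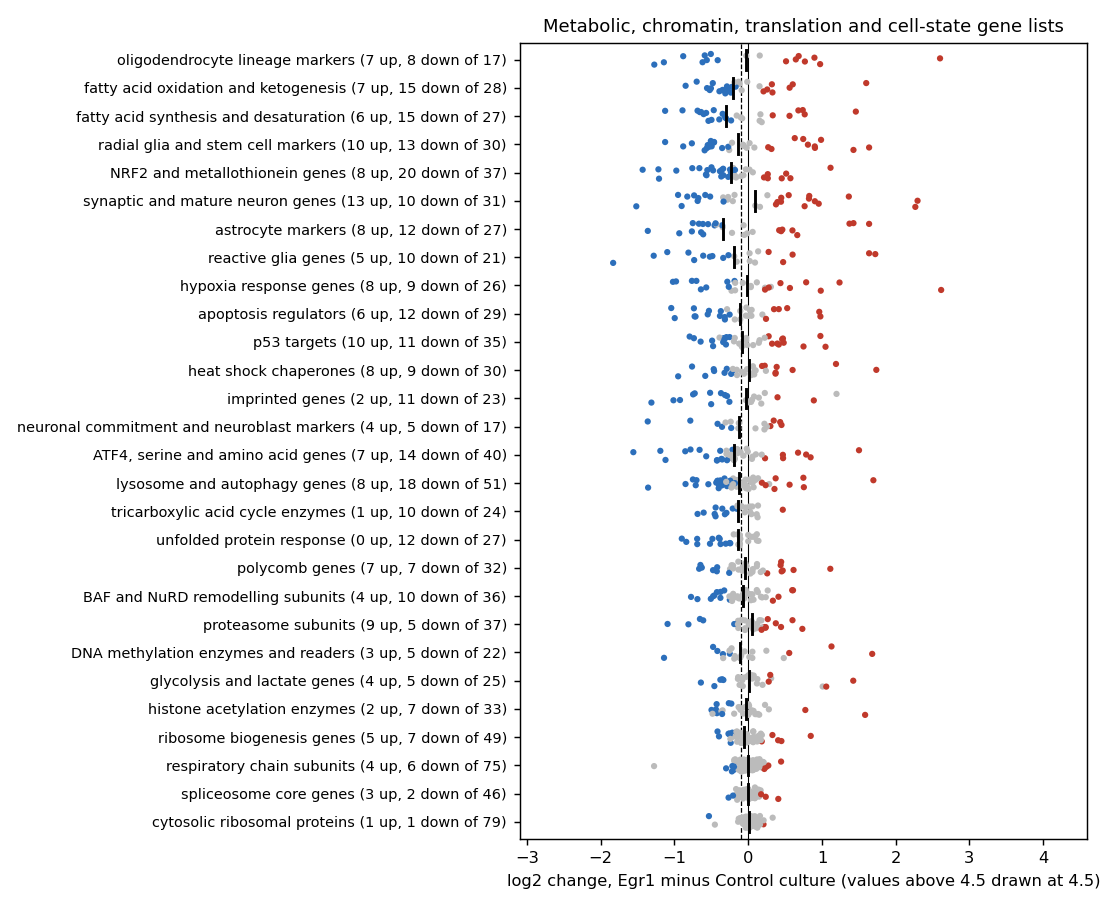
Log2 change (horizontal axis) of each tested member of the metabolic, chromatin, translation and cell-state lists, drawn as in the plot of signalling lists. Cytosolic ribosomal proteins, respiratory chain subunits and spliceosome genes lie close to 0 with few calls, while fatty acid and NRF2 genes hold many calls in both directions.

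Lipid and energy metabolism changed in a mixed manner. Rising and falling shares were 22.2% and 55.6% for fatty acid synthesis, 25% and 53.6% for oxidation and 4.17% and 41.7% for tricarboxylic acid cycle genes. They were 16% and 20% for glycolysis and 5.33% and 8% for respiratory chain genes, beside 15.2% and 29% of all tested genes. Of fatty acid synthesis and desaturation genes, 6 of 27 tested members rose and 15 fell (scaled 9 and 14, medians -0.30 and -0.19). The acetate-activating enzyme gene Acss2 fell (log2 change -0.69), as did Acsl5 (-0.66) and Agpat2 (-0.89), while Elovl7 rose (1.46) and Gpam (0.77). Of fatty acid oxidation and ketogenesis genes, 7 of 28 tested members rose and 15 fell (scaled 8 and 11, medians -0.20 and -0.12). The ketone-using enzyme gene Oxct1 fell (log2 change -0.70), as did Acox3 (-0.56), and the thiolase gene Acaa2 rose (0.60). Of tricarboxylic acid cycle enzymes, 1 of 24 tested members rose and 10 fell (scaled 4 and 8, medians -0.13 and -0.02). Acly fell (log2 change -0.60), as did Suclg2 (-0.69), while Idh3b rose (0.47). Rises in this list numbered 2 without Egr1 culture replicate 3. Of glycolysis and lactate genes, 4 of 25 tested members rose and 5 fell (scaled 9 and 5, medians 0.004 and 0.11). The lactate transporter Slc16a1 stood at 29.1, 30.2 and 33.6 TPM (Control) and 92.8, 79.9 and 81.7 TPM (Egr1) (log2 change 1.42 ± 0.08, adjusted p = 4.3e-06). The lactate dehydrogenase subunit Ldhb rose from 473 ± 4.13 to 986 ± 47.2 TPM, while Pfkm fell from 108 ± 4.98 to 78.4 ± 5.66 TPM. Falls in the glycolysis list numbered 3 without Egr1 culture replicate 3. Few respiratory chain subunits were called, and 4 of 75 tested members rose and 6 fell (scaled 9 and 0, medians 0.0015 and 0.11). The 6 falls became 3, 2 and 2 without Control culture replicate 1, Control culture replicate 2 or Egr1 culture replicate 1.

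Stress and amino acid lists held members that moved in opposite directions, except the unfolded protein response, where no member rose as deposited. Rising and falling shares were 17.5% and 35% for ATF4, 21.6% and 54.1% for NRF2 and 0% and 44.4% for unfolded protein response genes. They were 26.7% and 30% for chaperones and 30.8% and 34.6% for hypoxia genes, beside 15.2% and 29% of all tested genes. Of ATF4, serine and amino acid genes, 7 of 40 tested members rose and 14 fell (scaled 9 and 11, medians -0.19 and -0.08). Cystathionine beta-synthase (Cbs), the first enzyme of transsulfuration, stood at 60, 55.7 and 58.4 TPM (Control) and 20.1, 19.8 and 17.4 TPM (Egr1) (log2 change -1.56 ± 0.08, adjusted p = 2.1e-06). Cth, the next enzyme, fell from 5.46 ± 0.65 to 2.59 ± 0.516 TPM. The large amino acid transporter Slc7a5 stood at 87.7, 72 and 82.2 TPM (Control) and 247, 229 and 213 TPM (Egr1). Phgdh, which starts serine synthesis, rose from 149 ± 8.77 to 269 ± 0.161 TPM. Of NRF2 and metallothionein genes, 8 of 37 tested members rose and 20 fell (scaled 8 and 15, medians -0.23 and -0.12). The glutathione transferase gene Gstm1 fell from 323 ± 2.64 to 164 ± 15.9 TPM. Its neighbours Gstm2 and Gstm7 fell as well (log2 change -1.21 and -1.22), although such near-identical genes may share reads. Hmox1, the haem-degrading enzyme, rose from 126 ± 8.78 to 274 ± 3.93 TPM and Nqo1 from 13.8 ± 1.8 to 20.9 ± 2.32 TPM, and rises in this list numbered 5 without Egr1 culture replicate 1. Of the unfolded protein response, 0 of 27 tested members rose and 12 fell (scaled 4 and 10, medians -0.14 and -0.03). At an unadjusted limma p below 0.05, 0 of its members were higher. The degradation factor gene Edem1 fell (log2 change -0.90), as did Sdf2l1 (-0.84) and Dnajc3 (-0.69). Of heat shock chaperones, 8 of 30 tested members rose and 9 fell (scaled 12 and 7, medians 0.01 and 0.12). The small heat shock gene Cryab rose from 69.5 ± 3.44 to 234 ± 10.7 TPM. Hspb8, another of that family, rose from 18.1 ± 0.403 to 42.7 ± 1.99 TPM. Dnajb2 fell from 16.7 ± 0.776 to 8.14 ± 0.269 TPM and Bag3 from 47.3 ± 4.28 to 31.2 ± 2.63 TPM. Rises in the chaperone list numbered 4 without Control culture replicate 1 or Egr1 culture replicate 1, and 5 without Control culture replicate 2 or Egr1 culture replicate 3. Of hypoxia response genes, 8 of 26 rose and 9 fell (scaled 8 and 6, medians -0.02 and 0.09). The peptide gene Adm fell from 112 ± 5.71 to 54.7 ± 2.28 TPM and the oxygen sensor Egln3 from 26.3 ± 2.04 to 15.1 ± 0.685 TPM. Falls in the hypoxia list numbered 5 without Control culture replicate 3 or Egr1 culture replicate 3.

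Lysosomal genes followed the shares of all tested genes, with 15.7% rising and 35.3% falling beside 15.2% and 29%. Of lysosome and autophagy genes, 8 of 51 tested members rose and 18 fell (scaled 11 and 13, medians -0.12 and -0.01). The cathepsin gene Ctsh fell from 37 ± 2.27 to 13.8 ± 0.981 TPM and Ctsl from 166 ± 9.52 to 98.4 ± 4.53 TPM. Tfeb, a regulator of lysosomal genes, rose from 5.01 ± 0.5 to 18.5 ± 2.01 TPM. Of apoptosis regulators, 6 of 29 tested members rose and 12 fell (scaled 7 and 10, medians -0.11 and 0.0031). Casp8 fell from 3.33 ± 0.44 to 1.1 ± 0.224 TPM and the apoptosome gene Apaf1 from 16.1 ± 1.62 to 9.26 ± 0.928 TPM. The pro-apoptotic Bbc3 rose from 8.04 ± 0.236 to 16.8 ± 0.52 TPM and the anti-apoptotic Bcl2 from 8.36 ± 0.951 to 17.2 ± 1.38 TPM. Of p53 targets, 10 of 35 tested members rose and 11 fell (scaled 12 and 6, medians -0.08 and 0.03). These shares were 28.6% and 31.4%, and those of the apoptosis regulators 20.7% and 41.4%. Cdkn1a, whose product p21 inhibits the cell cycle, rose from 517 ± 31.2 to 722 ± 24 TPM. Fdxr fell from 22.4 ± 1.32 to 12.6 ± 1.88 TPM. Falls in the p53 list numbered 7 without Control culture replicate 1 or 3 or Egr1 culture replicate 2 or 3.

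Chromatin and translation lists differed in their shares of called members. Rising and falling shares were 21.9% each for polycomb, 6.06% and 21.2% for histone acetylation and 13.6% and 22.7% for DNA methylation genes. They were 11.1% and 27.8% for remodelling subunits, 24.3% and 13.5% for proteasome subunits and 10.2% and 14.3% for ribosome biogenesis genes. Spliceosome core genes (6.52% rising and 4.35% falling) and cytosolic ribosomal proteins (1.27% each way) lay below all tested genes (15.2% and 29%), while 8.7% of imprinted genes rose and 47.8% fell. Of polycomb genes, 7 of 32 rose and 7 fell (scaled 11 and 5, medians -0.04 and 0.07). Phc2 rose from 234 ± 13.9 to 507 ± 33.3 TPM, and falls numbered 4 without Egr1 culture replicate 3. Of histone acetylation enzymes, 2 of 33 rose and 7 fell (scaled 6 and 5, medians -0.03 and 0.08). The deacetylase gene Hdac11 rose from 10.4 ± 1.11 to 33.1 ± 1.95 TPM. Of DNA methylation enzymes and readers, 3 of 22 rose and 5 fell (scaled 4 and 4, medians -0.11 and -0.01). Gadd45a, which takes part in stress signalling and demethylation, stood at 70.8, 71.9 and 73.8 TPM (Control) and 254, 211 and 238 TPM (Egr1) (log2 change 1.68 ± 0.07, adjusted p = 8.7e-07). The dioxygenase gene Tet3 rose from 17.1 ± 1.8 to 39 ± 7.59 TPM and Zbtb4 fell from 3.52 ± 0.556 to 1.04 ± 0.172 TPM. Of BAF and NuRD remodelling subunits, 4 of 36 rose and 10 fell (scaled 9 and 8, medians -0.07 and 0.04). Rises in that list numbered 2 without Control culture replicate 2 and 8 without Egr1 culture replicate 3. Of imprinted genes, 2 of 23 rose and 11 fell (scaled 5 and 9, medians -0.03 and 0.08). Peg10 fell (log2 change -1.31), as did Plagl1 (-0.93) and Cd81 (-0.75). Of proteasome subunits, 9 of 37 rose and 5 fell (scaled 14 and 4, medians 0.06 and 0.17). The core subunit Psma7 rose from 482 ± 18 to 732 ± 57.7 TPM. The interferon-inducible activator subunit Psme1 fell from 115 ± 3.51 to 74.7 ± 1.25 TPM and Psme2 from 52.2 ± 4.57 to 32.7 ± 0.665 TPM. Of cytosolic ribosomal proteins, 1 of 79 rose and 1 fell (scaled 4 and 0, medians 0.01 and 0.13). Without Control culture replicate 1 or 3 or Egr1 culture replicate 2, neither ribosomal protein was called. Without Egr1 culture replicate 1 there was no fall, and without Egr1 culture replicate 3 there were 0 rises and 3 falls. Of ribosome biogenesis genes, 5 of 49 rose and 7 fell (scaled 13 and 2, medians -0.05 and 0.06). Ubtf, a factor of ribosomal RNA transcription, rose from 67.4 ± 1.49 to 122 ± 10.1 TPM. Falls in that list numbered 2 without Control culture replicate 2 and 3 without Control culture replicate 3 or Egr1 culture replicate 3. Of spliceosome core genes, 3 of 46 rose and 2 fell (scaled 12 and 0, medians 5.4e-05 and 0.11), so this list was largely not called as deposited and had rises alone after scaling. Rises in it numbered 6 without Egr1 culture replicate 3, and falls 1 without any Control culture library and 0 without Egr1 culture replicate 1.

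Immune gene lists that overlap in part with the interferon list held more falls than rises, as did all tested genes (15.2% rising and 29% falling). Rises and falls made up 4.76% and 57.1% of MHC class I genes and 10.7% and 50% of NF-kappaB genes. For complement genes the shares were 0% and 40%, of only 5 tested members. Of MHC class I and antigen processing genes, 1 of 21 tested members rose and 12 fell (scaled 1 and 12, medians -0.72 and -0.62). Interferon response genes make up 9 of these 21, and of the other 12 none rose and 5 fell (median log2 change -0.43). The trimming peptidase gene Erap1 stood at 10.4, 11.1 and 13.5 TPM (Control) and 4.96, 5.46 and 4.74 TPM (Egr1) (log2 change -1.06 ± 0.12, adjusted p = 1.7e-04). H2-Q4 fell from 16.4 ± 1.05 to 6.97 ± 1.2 TPM, with the limit that H2 genes are near-identical and may share reads. Of NF-kappaB and inflammatory genes, 3 of 28 tested members rose and 14 fell (scaled 3 and 12, medians -0.35 and -0.28). Without 2 members shared with the interferon list, 3 of 26 rose and 12 fell. The double-stranded RNA sensor Tlr3 stood at 16.8, 16.5 and 19.4 TPM (Control) and 6.33, 5.51 and 5.17 TPM (Egr1) (log2 change -1.48 ± 0.11, adjusted p = 1.5e-05). The chemokine gene Ccl2 stood at 12.6, 12.9 and 14.6 TPM (Control) and 2.47, 5.35 and 6.29 TPM (Egr1) (log2 change -1.40 ± 0.24, adjusted p = 0.0018). Tnfaip2 and the NF-kappaB inhibitor Nfkbie rose from 0.53 ± 0.205 to 10.6 ± 1.02 TPM and from 4.2 ± 0.38 to 16.6 ± 1.64 TPM. Of complement and acute phase genes, 0 of 5 rose and 2 fell (scaled 1 and 2, medians -0.32 and -0.22), with 0 higher at an unadjusted limma p below 0.05. These values stood beside falls in the 4 lists that were not the subject here. Of interferon response genes, 4 of 60 rose and 50 fell (scaled 5 and 46, medians -0.80 and -0.71). Of cholesterol synthesis genes, 3 of 30 rose and 21 fell (scaled 4 and 17, medians -0.41 and -0.30). Of mitotic genes, 1 of 59 rose and 43 fell (scaled 1 and 21, medians -0.30 and -0.19). Of replication genes, 1 of 54 rose and 30 fell (scaled 1 and 12, medians -0.25 and -0.14). Falls among mitotic genes numbered 19 to 27 without Control culture replicate 2 or 3 or Egr1 culture replicate 1 or 3, and falls among replication genes 18 without Control culture replicate 3. Mki67 changed by -0.42 (adjusted p = 0.036), a call lost with scaling, with no filter on low values, without limma's trend and without any Control culture library or Egr1 culture replicate 3 (adjusted p 0.0529 to 0.13). Whether the interferon values have a part in the falls of MHC and inflammatory genes was not tested.

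The largest rises outside these lists, among genes with a mean of at least 10 TPM, joined proteins of unrelated kinds that were almost absent from the Control culture. Calb2, the calcium-binding protein calretinin, stood at 1.35, 0.894 and 1.15 TPM (Control) and 163, 136 and 132 TPM (Egr1) (log2 change 6.08 ± 0.12, adjusted p = 1.9e-08). Trh, the thyrotropin-releasing hormone precursor, stood at 0.301, 0 and 0.108 TPM (Control) and 72.2, 70 and 66.7 TPM (Egr1) (log2 change 5.96 ± 0.12, adjusted p = 1.9e-08). Tnnc1, a troponin C of slow and cardiac muscle, stood at 1.42, 1.95 and 1.02 TPM (Control) and 83.4, 76.9 and 95 TPM (Egr1) (log2 change 5.14 ± 0.14, adjusted p = 7.2e-08). For all 3 genes every Egr1 culture library lay far above every Control culture library. Of all tested genes, 18.4% had every Egr1 culture library above, by any distance. Clec18a rose (log2 change 5.97), as did Fam180a (5.25) and S100a3 (5.10). The largest falls were smaller. Lgals9, which encodes galectin-9, stood at 41, 39.1 and 38.5 TPM (Control) and 5.49, 6.12 and 6.87 TPM (Egr1) (log2 change -2.51 ± 0.09, adjusted p = 3.8e-07). The glutathione transferase gene Gstt1 stood at 19.8, 21.1 and 18.1 TPM (Control) and 2.09, 3.15 and 3.17 TPM (Egr1) (log2 change -2.45 ± 0.14, adjusted p = 3.6e-06). The membrane protein gene Emp2 fell from 39.8 ± 2.1 to 10.1 ± 2.14 TPM and the lipid amidase gene Naaa from 19.5 ± 2.7 to 5.07 ± 0.83 TPM. The rule also returned small nucleolar RNA genes, Snord47 among the rises and Snora34 and Snora70 among the falls, whose calls were lost under 5 to 8 of the 17 alternatives.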

How the data were processed

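RNA was sequenced from 3 Control culture and 3 Egr1 culture libraries, for which mRNA was captured on beads and libraries kept strand information, per the labels' protocols. The deposited files hold 1 TPM value per gene name, a unit read from the values, since each library summed to about 1000000. Per the submitters' processing notes the genome build was mm10 and TopHat, Bowtie2 and DESeq2 were used, without role or version. Which program counted the reads, and with which strand setting or filter, is not given in the sources used here, so overlapping, antisense and near-identical genes are uncertain. Read counts were not used here, and only relative depth could be had, from the spacing of values between 0.005 and 0.1.

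Genes with a mean of at least 1 TPM were fitted with limma 3.58.1 (trend, R 4.3.3, the data.table package at version 1.17.8) on log2(TPM + 1), without a replicate block, with Benjamini-Hochberg adjustment. For low genes the change on this log2(TPM + 1) scale is an understatement. On simulated data with 200 changed genes among 12402, log2 changes of 0.5, 1 and 2 were recovered for 84, 184 and 197 genes, with 3, 9 and 11 false calls. Alternatives were the pseudocount, the filter, scaling, quality weights, the replicate block, limma without trend, the Egr1 value or small RNA genes left out and rescaled (the last chosen after seeing the data), and each library left out.

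Members and gene lists were chosen with earlier results of these data known. Of 2253 listed symbols 2248 matched, 14 by a synonym, and 192 genes stand in several lists. The genes named were a fixed set (the Egr and Nab genes, Nes, Sox2, Pax6, Olig2, Gfap, Tubb3, Dcx and Mki67), in each list the up to 4 called members with the largest change in its main direction and up to 2 in the other, and the 8 largest rises and 8 largest falls among genes with a mean of at least 10 TPM whose groups did not overlap. More of these were described than the 40 to 70 first planned, and in order of role. Vim, Pmp2, Cldn19, Gjc3, Ncmap, Prx and Pmp22 were named after their values were seen. A few genes that these rules name are not reported here. Promoters (RefSeq, GRCm38.p6) were matched by symbol, and figures were drawn in Python 3.11.15 with pandas 2.3.3 and matplotlib 3.10.9.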

Additional observations from a re-analysis of the deposited data

How the results depend on the processing

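Rises numbered 1503 to 2781 and falls 2630 to 3821 over all alternatives, and no gene called both in the reported fit and under an alternative changed direction. Scaling gave the fewest falls among fits on all 6 libraries, and it kept 1886 of the 1888 rises and 2708 of the 3598 falls. Leaving out each library in turn gave 1503 to 1927 rises and 2630 to 3151 falls. With the replicate number as a block there were 1643 rises and 3003 falls. Same-numbered libraries did not deviate together (correlations of 0.021, -0.03 and -0.052), so the numbers were not taken to pair the samples. Nab1, never called, changed sign to 0.0554 with median-of-ratios scaling, 0.02 with quantile normalization and 0.00468 with quality weights, and ranged from -0.129 to 0.0464 (0.00316 without Control culture replicate 3) when a library was left out. Vim, never called, changed sign to -0.00789 with quantile normalization and ranged from -0.0118 to 0.0692 when a library was left out. The cause was not tested. The TPM files give no counts, so the depth behind low values is unknown.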
